A study of Mus musculus with 16 samples.

Results

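The comparison described here is that of livers of 6-month-old mice 6 days after diethylnitrosamine (DEN) with livers of mice of the same age 2 days after DEN. Its members are the 6 libraries labelled with that age and one of these days, 3 per day, out of 16 libraries in all. All mice were wild type C57BL/6 males. Those of both days had received a single kind of treatment, an intraperitoneal injection of DEN, at 25 mg per kg of body weight by the sample labels (the methods of the study write the same figure per gram). Another 2 libraries of untreated 6-month-old mice serve as the reference level. The 6 DEN libraries of 1-month-old mice were used to ask whether the step between the days differed with age. The sample titles of these younger mice give their age as 3 weeks, where the study writes 1 month. RNA of 3 mice was combined in equal parts for each library, so that an SD is a spread between pools and hides the variation between animals. No untreated library was labelled with a day, so a difference between days is one between mice killed on different days after the same treatment. The question is which part of the response to DEN was still in place at day 6 and which was particular to either day.

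DEN is a nitrosamine that liver enzymes, mainly the cytochrome P450 CYP2E1 of the hepatocytes around the central vein, turn into an agent that adds ethyl groups to DNA. Damaged DNA stabilises the transcription factor p53, which raises genes that stop the cell cycle, such as Cdkn1a, that limit p53 itself, such as Mdm2, or that prepare cell death. The liver also answers injury and cytokines with the acute phase response, in which hepatocytes secrete proteins such as serum amyloid A, and it adapts lipid handling to the fed or fasted state.

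The 6 libraries held 19039330 to 33828996 counts, and 15684 genes of the whole series had enough counts to be tested. Of 18 tested hepatocyte markers, 12 lay below 0 with a median log2 fold change of day 6 minus day 2 of -0.06, which was 0.01 without replicate 3 of day 6, and 3 (16.7%) had all day 6 libraries below those of day 2, against 3.37% of all genes. None passed the test, as for nearly all genes, and their summed level was 72134 to 76335 CPM (counts scaled to the size of the library) at day 2 and 71703 to 74993 CPM at day 6. The largest component of variation among the 6 libraries, with 39.3% of the variance, did not separate the days. It placed replicate 3 of both days (28.7 and 40.5) above replicates 1 and 2 of both days (-29.8 to -3.84). The score of the circadian clock, high when Dbp is high and Arntl low, was 3.71, 2.81 and -0.51 at day 2 and 3.84, 1.08 and 0.34 at day 6, so that replicate 3 was the lowest on both days. In tissue RNA, fewer cells of a type and less RNA per cell cannot be told apart.

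A pair of overlapping genes passed the test between the days, and both were lower at day 6. Apoa4, which encodes an apolipoprotein of intestinal and hepatic lipoproteins that rises with lipid load and fasting, fell to 0.334 times its day 2 level. The gene (ENSMUSG00000032080) lies on chromosome 9 of GRCm38 from 46240696 to 46243459 on the plus strand. Its level was 199.8, 179 and 182.7 CPM at day 2, 70.0, 57.2 and 60.4 CPM at day 6 and 85.8 and 101 CPM in the controls. The 3 day 6 libraries of Apoa4 therefore lay below every control library and every day 2 library, while the day 2 libraries lay above all others. The log2 fold change of Apoa4 was -1.58 (standard error 0.237, 95% interval -2.09 to -1.07, adjusted p = 0.0797 by the quasi-likelihood test of edgeR, adjusted by Benjamini and Hochberg over all tested genes, threshold 0.1). The other gene was Gm10680, annotated on the minus strand of the same chromosome from 46242621 to 46243529, at 121, 106 and 109 CPM on day 2 and at 42.4, 30.3 and 36.5 CPM on day 6. Gm10680 had a log2 fold change of -1.62 and the same adjusted p (0.0797). It shares 839 bases with Apoa4, and since no source used here says whether counting used strand, reads of Gm10680 and Apoa4 cannot be told apart.

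No gene passed as higher at day 6 (0% of 15684 tested), and those 2 were the only lower ones (0.0128%). Before adjustment, 269 genes (185 of them higher at day 6) had a p under 0.05, fewer than the 784.2 that evenly spread p-values would give, and neither DESeq2 nor limma-voom called a gene as higher. The 3 libraries of day 6 all lay above those of day 2 in 548 genes (3.49%) and all below in 529 (3.37%), which are the shares against which the gene lists are read. The call of Apoa4 did not survive the loss of any of the 6 libraries: its adjusted p was then 0.241 to 0.751, with log2 fold changes of -1.68 to -1.52. With the 8 libraries of 6-month-old mice alone the adjusted p of Apoa4 was 0.00448. Replicate numbers were taken to pair the libraries of the days by the check given in the methods, though the labels do not say so. With a replicate block over the 6 libraries 1 gene was higher and 7 were lower. Beside Apoa4 (adjusted p = 0.00279) and Gm10680, the lower ones under this block were Orm2 (adjusted p = 0.0432), Fabp2, Vnn1, Cidec and Sdf2l1, and the higher one was Selenbp2 (Vnn1, Cidec and Selenbp2 were named after their values were seen).

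**Figure D1:**
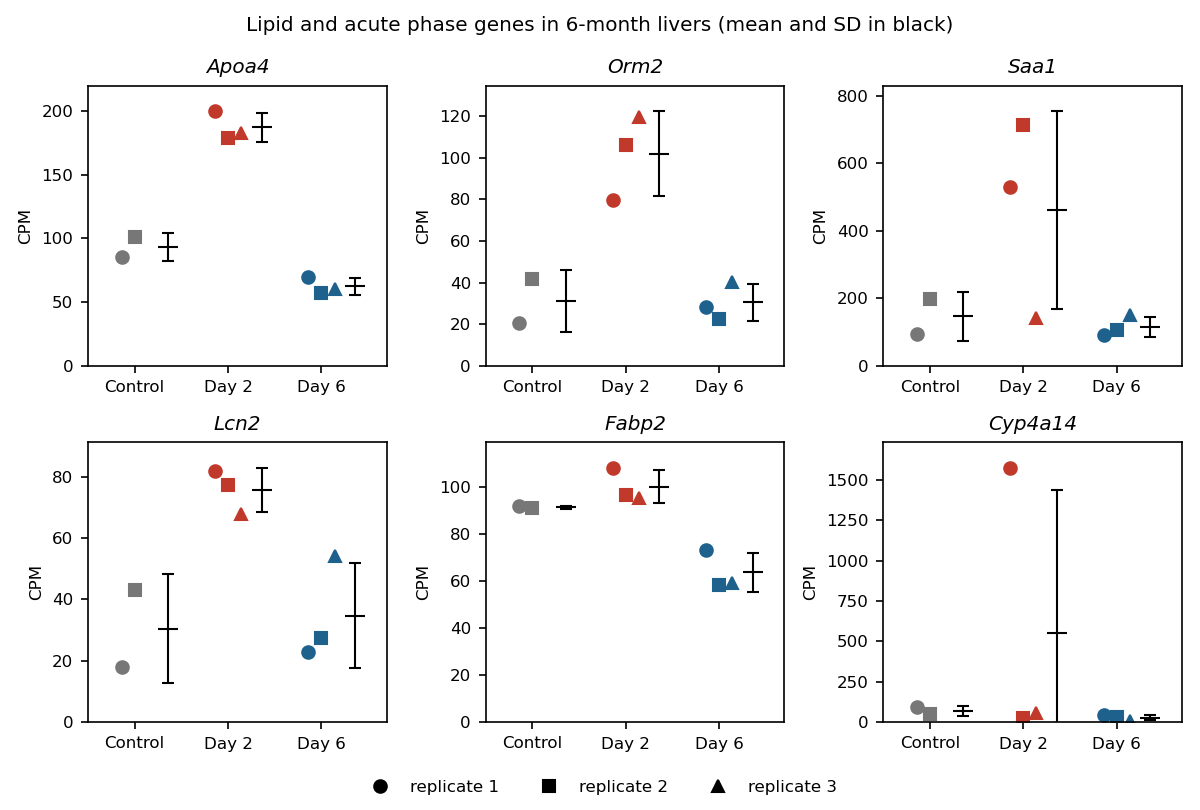
Level in CPM (vertical axis, from 0) of 6 genes in each library of 6-month-old mice, by group, with the replicate number as symbol and the mean and SD in black. Apoa4, Orm2, Lcn2 and Fabp2 do not overlap between the days, Saa1 overlaps through replicate 3 of day 2, and Cyp4a14 is high in 1 day 2 library only, whose SD bar is cut at 0.

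The acute phase genes were mostly lower at day 6 than at day 2, and none of the 35 passed the test. Of these, 30 lay below 0 and 5 above, with a median log2 fold change of -0.24 beside 0.00 over all genes tested. In 8 of them (22.9%) all day 6 libraries were below those of day 2, against 3.37% of all genes, and in none were they all above, while 6 had an unadjusted p under 0.05. Orm2, an acute phase glycoprotein of the lipocalin family, was measured at 79.8, 106 and 119.9 CPM at day 2, 28.2, 22.6 and 40.5 CPM at day 6, and 20.5 and 41.7 CPM in the controls. The days did not overlap, and the day 6 libraries of Orm2 lay within the range of the controls. Its log2 fold change was -1.74 (95% interval -2.45 to -1.03, adjusted p = 0.617 by edgeR), which became a call with DESeq2 (adjusted p = 0.00118) and with limma-voom (adjusted p = 0.0565). Over all alternatives the adjusted p of Orm2 ran from 3.35e-06, with no filter on low counts, to 1.

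Saa1, a serum amyloid A protein, was at 529.8, 712 and 139.9 CPM at day 2 and at 90.3, 106 and 149 CPM at day 6, with controls at 94.1 and 197 CPM. Replicates 1 and 2 of day 2 stood far above the other libraries, and replicate 3 lay within the range of day 6. The log2 fold change of Saa1 was -2.0 (95% interval -3.17 to -0.83, adjusted p = 1 by edgeR). Its neighbour Saa2 showed the same order, with 321, 536 and 61.7 CPM at day 2 and 39.6, 45.6 and 78.3 CPM at day 6. Lcn2, an iron-siderophore binding protein of the acute phase, was at 82.0, 77.4 and 67.8 CPM at day 2 and at 22.7, 27.3 and 54.3 CPM at day 6 (log2 fold change -1.12, 95% interval -1.92 to -0.32, adjusted p = 1 by edgeR). Among the abundant secreted proteins, the haemoglobin scavenger haptoglobin (Hp), the complement component C3, the inhibitor chain Itih4, Orm1 and the lipopolysaccharide binding protein Lbp did not overlap between the days either. Their log2 fold changes were -0.46, -0.37, -0.41, -0.39 and -0.60. Saa2, Hp, C3, Itih4, Orm1 and Lbp were named after their values were seen. Leaving out 1 of the 6 libraries kept the median of the acute phase genes between -0.36 and -0.19. The mean differences within replicate pairs were -0.65, -0.43 and -0.06, so pair 3 fell little. Markers of macrophages, whose cytokines drive this response, had a median of -0.11 with 17 of 24 below 0 and 1 (4.17%) without overlap, a median of 0.06 without replicate 3 of day 2, and a summed level that overlapped between the days (1012 to 1750.5 CPM at day 2, 1015 to 1662 CPM at day 6). Their part in the difference was not tested.

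The windows of 250 bases before the annotated start of Orm2 and Saa1 are shown because both hold a match to a C/EBP motif, the binding sequence of liver factors of the acute phase. Both genes had a negative log2 fold change, with overlap between the days for Saa1 only. Capitals mark the letters TTNNGNAAT read on either strand, and the sequences are those of RefSeq on GRCm38.p6, written 5′ to 3′ on the strand of the gene. Orm2 is on chromosome 4 (plus strand, chr4:63362199-63362448) and Saa1 on chromosome 7 (minus strand, chr7:46742981-46743230).
Orm2: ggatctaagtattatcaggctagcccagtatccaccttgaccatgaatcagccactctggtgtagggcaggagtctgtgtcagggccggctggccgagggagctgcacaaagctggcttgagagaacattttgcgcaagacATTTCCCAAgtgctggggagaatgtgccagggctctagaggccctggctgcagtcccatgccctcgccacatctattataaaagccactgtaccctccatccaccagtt
Saa1: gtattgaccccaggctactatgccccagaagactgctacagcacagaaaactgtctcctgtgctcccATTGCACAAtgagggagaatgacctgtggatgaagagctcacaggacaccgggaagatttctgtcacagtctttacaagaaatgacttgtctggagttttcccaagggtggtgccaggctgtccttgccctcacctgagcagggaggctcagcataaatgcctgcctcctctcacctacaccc
A window was matched for 29 of the acute phase genes, and 8 of these (27.6%) held this motif, against 6.91% of the 10981 tested genes with a window and 10.3% of all 27025 genes with one. The STAT motif TTCNNNGAA, read on both strands, was also held by 8 (27.6%), against 6.28% of tested genes. A match describes the letters only and says nothing of binding in these livers.

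Genes of fasting and fatty acid oxidation were lower at day 6 in 29 of 33 tested, with a median of -0.29, and Apoa4 was the 1 that passed (0.0128% of all genes passed as lower). The 3 without overlap between the days (9.09%, against 3.37%) were Apoa4, the acyltransferase Mogat1 and Cpt2, the carnitine palmitoyltransferase of the inner mitochondrial membrane. Cpt2 was at 199.8, 164 and 174 CPM at day 2 and at 162, 142 and 137 CPM at day 6. The PPARα targets of the Cyp4a family, which hydroxylate fatty acids, had the largest fold changes of the list. Cyp4a14 was at 1576, 24.2 and 55.9 CPM at day 2 and at 41.0, 31.5 and 8.30 CPM at day 6, with controls at 91.7 and 48.1 CPM. A single library, replicate 1 of day 2, carried this difference in Cyp4a14, and the same library was the highest in Cyp4a10 (820 CPM against 32.2 and 98.6 CPM in the other day 2 libraries) and in the peroxisomal enzyme Ehhadh (999 CPM against 264 and 266 CPM). Without replicate 1 of day 2 the median of the list was -0.09. Outside the list, Fabp2, the intestinal-type fatty acid binding protein, was picked for a small p and no overlap with day 6 below. It was at 108 CPM, 96.7 CPM and 95.5 CPM at day 2 and at 73.2, 58.6 and 59.3 CPM at day 6, below both controls (92.0 and 91.0 CPM). Its log2 fold change was -0.65 (95% interval -1.05 to -0.26, adjusted p = 1 by edgeR), and Fabp2 passed only under the replicate block (adjusted p = 0.0952). Mogat1, Cpt2, Cyp4a14, Cyp4a10 and Ehhadh were named after their values were seen.

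The lists of lipid synthesis lay on the other side of 0. All 24 tested genes of cholesterol synthesis were above 0 at day 6, with a median of 0.34, no call, and 7 (29.2%) with all day 6 libraries above those of day 2, against 3.49% of all genes. Nsdhl, a dehydrogenase of the later steps of the pathway, was at 67.1, 95.3 and 63.6 CPM at day 2, at 114.5, 110.0 and 120.4 CPM at day 6 and at 121 and 95.5 CPM in the controls. Day 6 lay in the range of the controls, and day 2 at or below it. The log2 fold change of Nsdhl was 0.61 (95% interval 0.04 to 1.18, adjusted p = 1 by edgeR). Idi1, the isopentenyl diphosphate isomerase, and the methylsterol oxidase Msmo1 had values of 0.62 and 0.56 and no overlap (both named after their values were seen). Over the genes of fatty acid and triglyceride synthesis the median was 0.26, with 23 of 25 above 0 and none without overlap. This median was 0.17 without replicate 1 and 0.47 without replicate 2 of day 2, and the mean differences within replicate pairs were 0.54, -0.20 and 0.60, so pair 2 went the other way. For cholesterol synthesis the pairs gave 0.47, 0.05 and 0.53, and the median was 0.53 without replicate 2 of day 2. Scd1, the stearoyl-CoA desaturase, ranged from 4503 to 11519 CPM at day 2 and from 8837 to 16827 CPM at day 6 (log2 fold change 0.87, 95% interval -0.22 to 1.96).

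**Figure D2:**
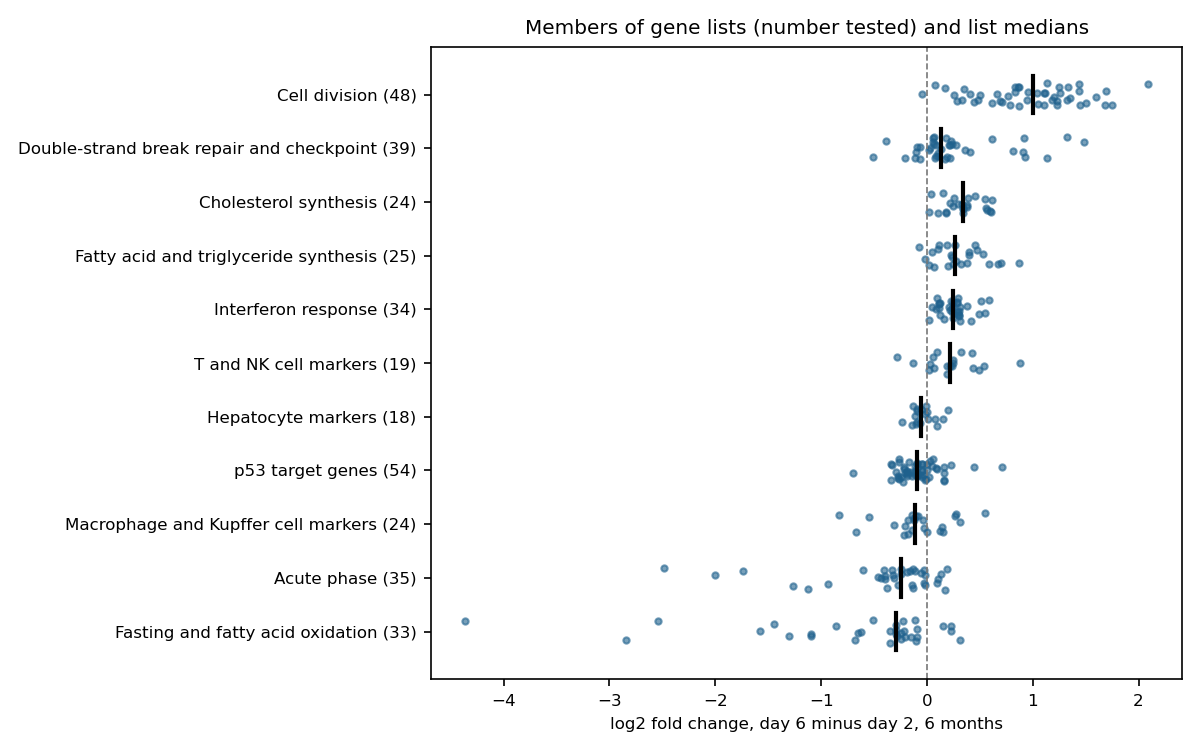
Log2 fold change of day 6 minus day 2 in 6-month livers (horizontal axis) for each tested member of 11 gene lists, with the number tested in brackets and the list median as a black bar. Cell division genes lie right of 0 with a median of 1.0, and the acute phase and fasting lists lie left of 0 with medians of -0.24 and -0.29.

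Cell division genes had the largest median shift of any list, and none of the 48 passed the test. The median log2 fold change was 1.0, 47 of 48 lay above 0, and 23 had an unadjusted p under 0.05. In 22 (45.8%) all day 6 libraries lay above those of day 2, against 3.49% of all genes. The list counted genes of S phase and mitosis alike. Mcm6, a subunit of the helicase that opens replication origins, was at 11.99, 5.26 and 6.57 CPM at day 2 and at 19.9, 11.6 and 17.6 CPM at day 6, with controls at 9.76 and 13.1 CPM. The lowest day 6 library of Mcm6 lay just under the highest of day 2 (log2 fold change 1.04, 95% interval 0.35 to 1.74, adjusted p = 1 by edgeR). The helicase subunits Mcm2, Mcm3 and Mcm5 had log2 fold changes of 0.79, 0.87 and 1.25 without overlap, and Rrm2, a subunit of ribonucleotide reductase, one of 0.77. Pbk, a mitotic kinase, was measured at 0.59, 0.21 and 0.30 CPM at day 2 and at 1.38, 1.06 and 2.32 CPM at day 6 (log2 fold change 2.09, 95% interval 0.67 to 3.51). Mki67, the proliferation marker Ki-67, was at 5.69, 2.96 and 8.76 CPM at day 2, 7.87, 8.98 and 21.4 CPM at day 6 and 5.84 and 16.1 CPM in the controls, so that the days overlapped (log2 fold change 1.13, 95% interval 0.08 to 2.19). Ccnd1, the cyclin D1 of the entry into the cycle, was at 77.4, 26.4 and 46.3 CPM at day 2 and at 66.6, 71.7 and 107 CPM at day 6, with overlap (log2 fold change 0.71, 95% interval -0.30 to 1.72). Outside the list, Cdkn3, a phosphatase of cyclin-dependent kinases, had a log2 fold change of 2.19, the condensin subunit Ncapd2 one of 0.71 and the replication factor Wdhd1 one of 0.76. These 3 were picked for a small p and no overlap with day 6 above, so their direction was fixed by the choice. Mcm2, Mcm3, Mcm5 and Rrm2 were named after their values were seen.

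Set beside the mean of the 2 controls, which differed widely, the cell division genes lay below it at day 2 and near it at day 6. Of the day 2 libraries, replicate 2 alone lay far below both controls. Their median log2 fold change from control was -0.70 at day 2 and 0.15 at day 6. By library, the median of log2(CPM + 0.1) relative to the mean of the controls was -0.25, -1.18 and -0.47 at day 2, -0.06, -0.11 and 0.73 at day 6, and -0.43 and 0.43 in the controls. Day 2 and day 6 did not overlap, while the controls spanned part of both. The differences within pairs of the same replicate number, as means of log2 CPM over the list, were 0.39, 1.09 and 1.24. Leaving out replicate 3 of day 6 lowered the list median to 0.52, and leaving out replicate 2 of day 6 raised it to 1.23. Replicate 2 of day 2, the lowest in cell division, was also the lowest of the 3 day 2 libraries in the mean log2 CPM of macrophage markers (4.16 against 4.69 and 4.91) and of T and NK cell markers (-0.36 against 0.61 and 0.78). The T and NK cell markers had a median of 0.21 between the days, with 17 of 19 above 0 and summed levels of 17.6 to 46.1 CPM at day 2 and 26.4 to 55.4 CPM at day 6. Their median changed sign with single libraries, from -0.13 without replicate 3 of day 6 to 0.58 without replicate 3 of day 2, and the pairs gave -0.56, 1.01 and 0.30. Their part in the difference in cell division genes was not tested.

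**Figure D3:**
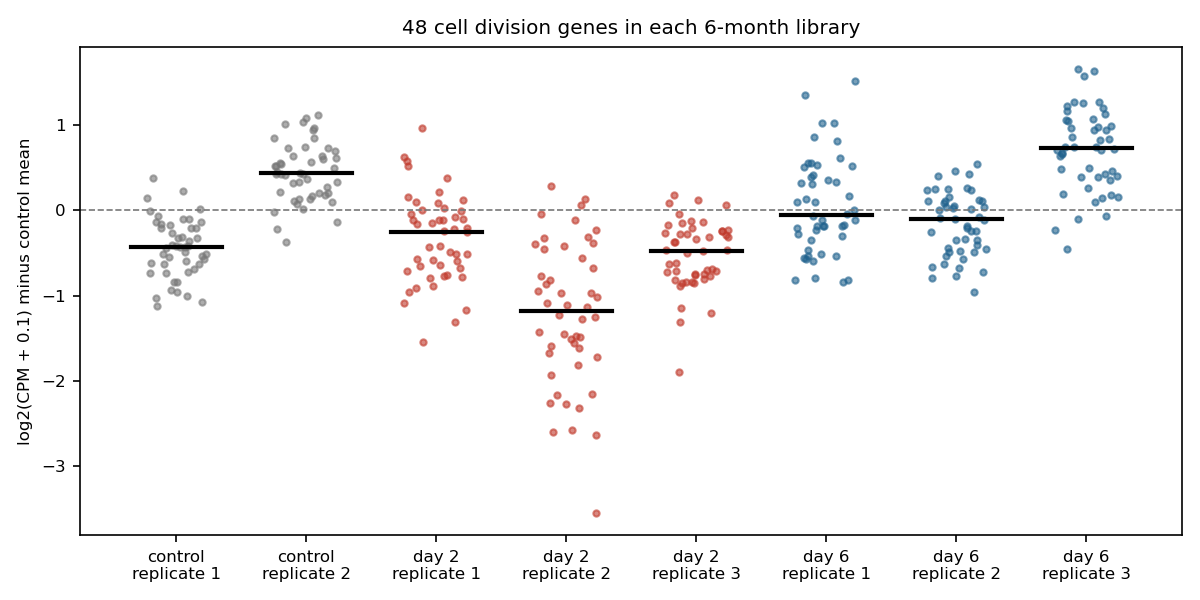
Each point is 1 of 48 cell division genes in 1 library of 6-month-old mice, as log2(CPM + 0.1) minus the mean of the 2 controls (vertical axis), with the library median as a bar. The medians run from -1.18 to -0.25 at day 2 and from -0.11 to 0.73 at day 6.

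The window before the start of Mcm6 is shown because it holds letters typical of genes of S phase. Capitals mark 2 matches of the E2F motif TTTGGCGC and 2 CCAAT boxes, which read ATTGG on this strand. It comes from RefSeq on GRCm38.p6, chromosome 1, minus strand, chr1:128359706-128359955.
Mcm6: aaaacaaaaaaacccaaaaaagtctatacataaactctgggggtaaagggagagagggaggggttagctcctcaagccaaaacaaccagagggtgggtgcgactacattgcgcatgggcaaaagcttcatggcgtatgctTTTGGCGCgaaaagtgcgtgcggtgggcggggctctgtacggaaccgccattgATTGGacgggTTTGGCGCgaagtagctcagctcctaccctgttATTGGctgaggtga
Of 39 cell division genes with a window of 250 bases, 27 (69.2%) held CCAAT on either strand, against 36.3% of tested genes. The motif TTTGGCGC was held by 2 (5.13%), against 0.838%, and the CHR motif TTTGAA by 9 (23.1%), against 11.05%. These shares describe the letters of the windows.

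Genes of double-strand break repair and checkpoint had a median of 0.14, with 31 of 39 above 0. In 9 (23.1%) all day 6 libraries lay above those of day 2, against 3.49% of all genes. This median ran from 0.09 to 0.16 when 1 library was left out, and the pairs gave 0.12, 0.28 and 0.36. Genes of excision, mismatch and alkylation repair had a median of 0.04, which ran from -0.01 to 0.04 when 1 library was left out. Of these 41, 3 (7.32%) lay above and 2 (4.88%) below without overlap, not far from the 3.49% and 3.37% of all genes. Lig1, the DNA ligase of replication and excision repair, had a log2 fold change of 0.72 (95% interval 0.08 to 1.35). All 34 interferon response genes lay above 0, with a median of 0.25 and no call. In 4 (11.8%) the day 6 libraries were all above, against 3.49% of all genes. Ifit3, an RNA-sensing effector, was at 11.1, 7.18 and 8.76 CPM at day 2, 13.3, 13.97 and 13.5 CPM at day 6 and 12.9 and 18.1 CPM in the controls (log2 fold change 0.59, 95% interval 0.16 to 1.02). Without replicate 2 of day 2 the interferon median was 0.02, and the pairs gave -0.14, 0.56 and 0.41.

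The genes that responded to DEN were chosen without the difference between the days, by testing the mean of both days against the controls at 6 months. This choice favours genes shifted the same way on both days and can miss those shifted on 1 day. Apoa4, with log2 fold changes over control of 1.00 at day 2 and -0.58 at day 6, was not chosen. Small steps among the chosen genes therefore follow in part from the choice. By this test 44 genes rose (0.281% of those tested) and 15 fell (0.0956%). None of these 59 passed the test between the days by edgeR, and 4 of the higher and 2 of the lower genes had an unadjusted p under 0.05. Over the 44 higher genes the median log2 fold change of day 6 minus day 2 was -0.16 (quartiles -0.27 and -0.02), beside 0.00 over all genes. In 34 of them day 6 lay nearer to the controls, and in 9 all day 6 libraries lay below those of day 2 and in 1 above, where 3.37% and 3.49% of all genes did so. The medians over controls were 2.06 at day 2 and 1.76 at day 6. The 95% interval of the step between the days held 0 for 40 of the 44 and lay wholly within a 2-fold change either way for 31, so for the remaining 13 a change of that size was within the interval. With the higher genes chosen anew in each fit, the median step was -0.31 without replicate 1 of day 6 and -0.05 without replicate 2 of day 6. These fits changed the genes as well as the libraries, so they do not show how the median of these 44 depends on a library.

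Cdkn1a, the inhibitor of cyclin-dependent kinases also called p21, was at 10.2 and 7.20 CPM in the controls, at 165.5, 112 and 214 CPM at day 2 and at 197.5, 129 and 197.7 CPM at day 6. Every DEN library was far above the controls and the days overlapped fully. For Cdkn1a the log2 fold change of both days over control was 4.29 (adjusted p = 0.0322 by edgeR), and that of day 6 minus day 2 was 0.09 (95% interval -1.15 to 1.33). Phlda3, a p53-induced repressor of AKT, was at 28.8, 32.1 and 32.1 CPM at day 2 and at 36.5, 24.6 and 26.3 CPM at day 6, with controls at 1.96 and 1.62 CPM. Phlda3 differed between the days by -0.09 (95% interval -1.27 to 1.09). Mdm2, the ubiquitin ligase that limits p53, had 96.6 ± 8.06 CPM (SD, n = 3) on day 2, 90.3 ± 10.1 CPM on day 6 (SD, n = 3) and 38.3 CPM as the mean of the controls, and its interval was narrower (-0.10, 95% interval -0.48 to 0.29). Eda2r, a p53-induced death receptor of the TNF receptor family, was at 28.6, 24.6 and 34.2 CPM on day 2, then at 30.4, 20.4 and 25.9 CPM, over controls at 2.75 and 2.50 CPM.

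Among the plotted p53 targets Ccng1, which encodes cyclin G1, alone had all day 6 libraries below those of day 2. It was at 249, 247 and 245 CPM at day 2, at 223, 173 and 192 CPM at day 6 and at 61.0 and 53.9 CPM in the controls, without overlap between any of the groups. Its step had an interval that held 0 (log2 fold change -0.33, 95% interval -0.87 to 0.20, adjusted p = 1 by edgeR). The kinase Plk2 (57.5, 54.2 and 63.0 CPM, then 52.8, 46.1 and 45.8 CPM) and the translesion polymerase Polk (20.8, 20.1 and 20.8 CPM, then 20.0, 13.7 and 19.3 CPM) had the same order, and both were named after their values were seen. Of the flippase gene Atp8b5, the mTORC1 inhibitor Ddit4l and the glutamate receptor subunit Gria3, the steps were -0.07, -0.19 and 0.26, each with an interval that held 0 and lay within a 2-fold change. Bax, a pore-forming protein of the mitochondrial death pathway, and Trp53inp1, a p53-induced stress protein, had steps of -0.04 and -0.07, and Gdf15, a stress cytokine, one of -0.34 (95% interval -1.31 to 0.63). Over the whole list of 54 p53 targets, 40 lay below 0 and 14 above, the median was -0.10, and 6 (11.1%) had all day 6 libraries below those of day 2, against 3.37% of all genes. Medians of the p53 list over control were 0.77 at day 2 and 0.75 at day 6, and the differences within replicate pairs were -0.10, -0.06 and -0.09. An exception with a wider step was Cyp2a22, a cytochrome P450, at 10.2, 4.51 and 5.94 CPM at day 2, 4.45, 2.82 and 2.86 CPM at day 6 and 1.31 and 1.37 CPM in the controls (log2 fold change -1.03, 95% interval -1.75 to -0.32, adjusted p = 1 by edgeR). Cyp2a22 may share reads with the other Cyp2a genes.

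**Figure D4:**
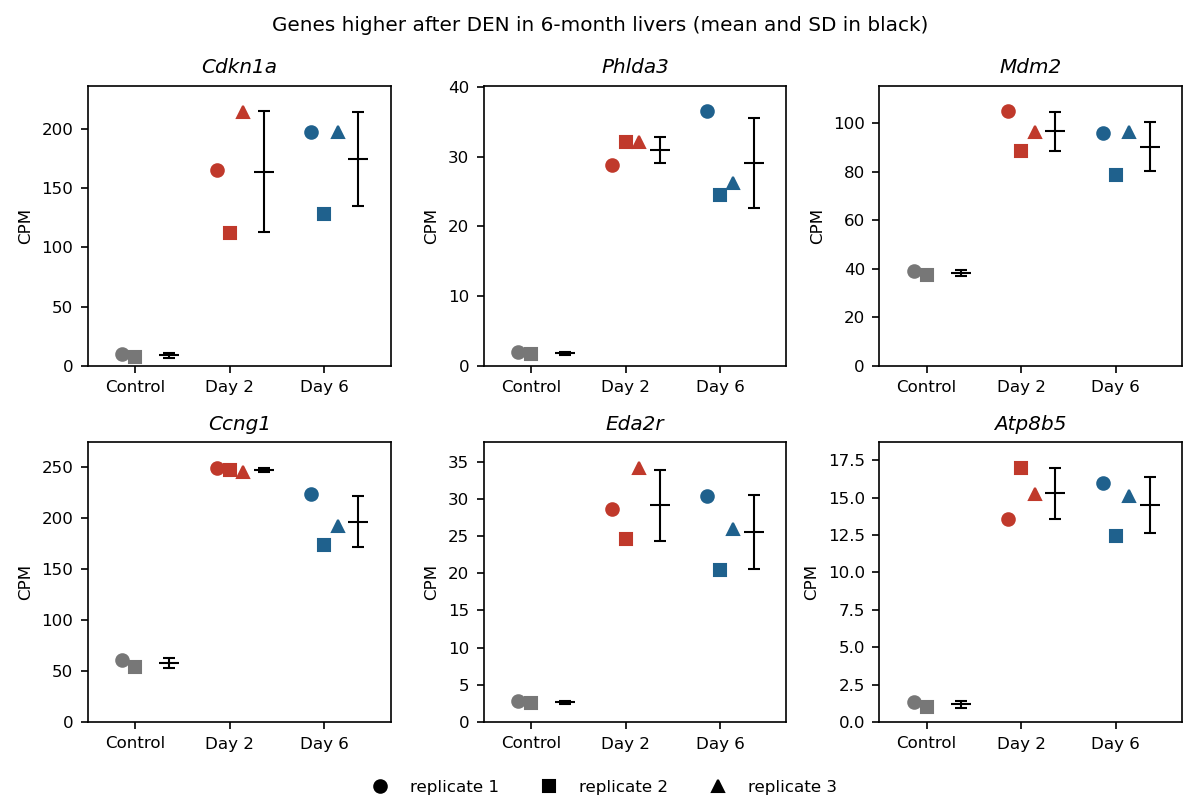
Level in CPM (vertical axis, from 0) of 6 genes that rose after DEN in each library of 6-month-old mice, with the mean and SD in black. In all 6 panels the DEN libraries of both days are above the controls, and only Ccng1 has day 6 libraries that are all below those of day 2.

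The 15 genes that fell after DEN had a median step of 0.07 between the days, with 8 nearer to control at day 6 and 7 farther, and 13 intervals that held 0. Glul, the glutamine synthetase of hepatocytes next to the central vein, was at 1032 and 1042 CPM in the controls, 399, 337 and 428 CPM at day 2 and 550.3, 594 and 391 CPM at day 6 (step 0.40, 95% interval -0.03 to 0.82). Oat, the ornithine aminotransferase of the same hepatocytes, was at 1299 and 1254 CPM, then 426, 241 and 363 CPM, then 494, 446 and 370.0 CPM (step 0.35, 95% interval -0.20 to 0.90). Days overlapped for both, and both days stayed below every control library. Aatk, a kinase, was at 13.4 and 13.7 CPM in the controls and between 2.52 and 3.45 CPM in all 6 DEN libraries (step 0.12, 95% interval -0.30 to 0.54). Fhit, a hydrolase at a chromosomal fragile site, was at 2.57 and 2.50 CPM in the controls, 0.78, 0.38 and 0.37 CPM at day 2 and 0.73, 0.96 and 1.27 CPM at day 6 (step 0.94, 95% interval 0.23 to 1.66, adjusted p = 1 by edgeR). Cfd, an adipocyte protease, had at most 2.29 CPM in any of these libraries and only 0 to 26 counts in those after DEN. Its step was -2.95 (95% interval -5.25 to -0.65), farther from control at day 6. Cfd is not plotted, though Mup-ps12, with 1 to 6 counts after DEN, is. Without replicate 3 of day 6 the median step was 0.36 over the lower genes chosen anew in that fit, which need not be these 15.

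**Figure D5:**
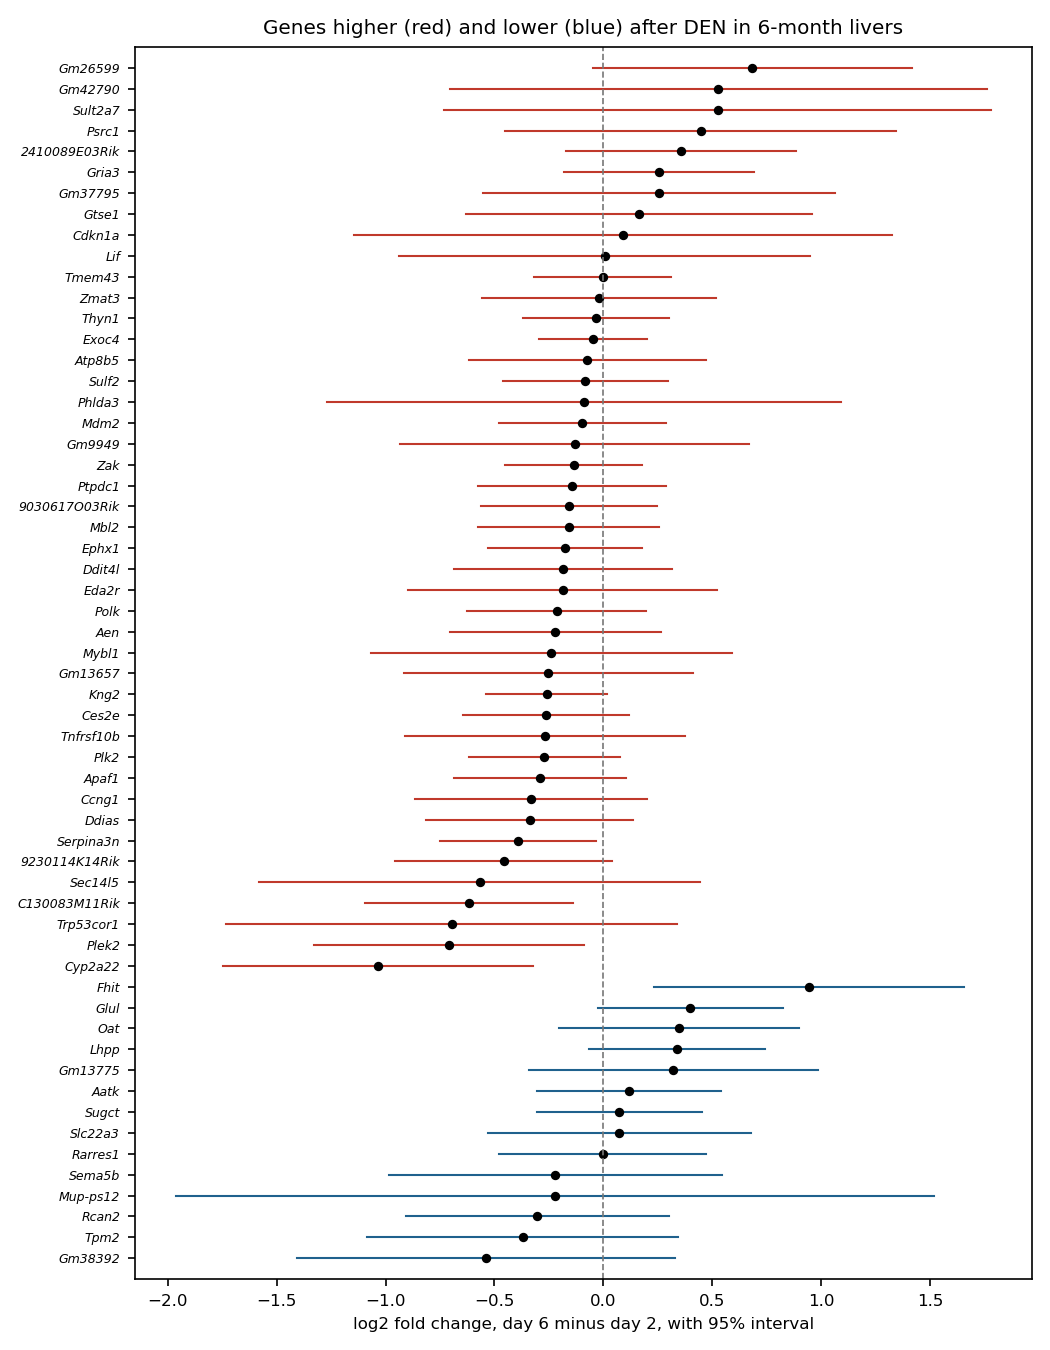
Log2 fold change of day 6 minus day 2 (points) with 95% intervals (lines) for genes higher (red) and lower (blue) after DEN at 6 months. Cfd, with few counts and a step of -2.95, is not plotted. Intervals of 40 of the 44 higher genes cross 0. Among the plotted genes Cyp2a22 and Fhit lie farthest from 0 in their groups.

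The named genes with the smallest p in the direction of a higher level at day 6 included, beside those of cell division, genes that span long stretches of the genome, such as Park2 with 1223 kb and Wwox with 913 kb. Col25a1, a membrane collagen, was at 1.03, 1.00 and 0.53 CPM at day 2 and 2.22, 2.12 and 1.94 CPM at day 6 (log2 fold change 1.29, 95% interval 0.67 to 1.91). Park2, the ubiquitin ligase parkin, was at 0.84, 0.75 and 0.73 CPM at day 2, 1.65, 1.77 and 1.64 CPM at day 6 and 3.36 and 1.85 CPM in the controls (1.11, 95% interval 0.49 to 1.73). Wwox, an oxidoreductase, was at 4.51, 3.93 and 4.25 CPM, then 7.14, 5.60 and 5.71 CPM, with controls at 7.70 and 7.91 CPM (0.54, 95% interval 0.21 to 0.87). For Park2 and Wwox both days lay below every control library. The genes of this paragraph were picked for a small p and no overlap between the days. Their direction and lack of overlap were therefore fixed by the choice. Mms22l, a protein of replication fork repair, had a log2 fold change of 1.12 (95% interval 0.47 to 1.77), and Ttc39c one of 0.62 (95% interval 0.28 to 0.96). On the lower side, beside those given above, stood Tmem229a (-1.02, 95% interval -1.55 to -0.49), the ERK pathway inhibitor Spred1 (-0.47, 95% interval -0.77 to -0.16), the glycolytic enzyme Pfkl (-0.28), the water channel Aqp4 (-0.71), the proteoglycan Cspg5 (-0.996), the zinc finger gene Zfp174 (-0.55) and Derl3 of the endoplasmic reticulum (-1.95). Each of these had an adjusted p of 1 by edgeR.

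No gene had a step between the days that differed between 6 months and 1 month at the threshold (0% of 15684, by edgeR, with 12 libraries that share no control), and 321 had an unadjusted p under 0.05. The genes with the smallest p in this test included acute phase genes. Orm2 had a step of -1.74 at 6 months and of 0.58 at 1 month, a difference of -2.32 (adjusted p = 1 by edgeR, 0.0231 by DESeq2). For Saa1 the steps were -2.0 and 1.78 and the difference was -3.78 (adjusted p = 1 by edgeR, 0.0401 by DESeq2). For Apoa4 the steps were -1.58 and -0.38, a difference of -1.20 (adjusted p = 1 by edgeR). The acute phase list had a median of 0.30 at 1 month, with 30 of 35 above 0, and the cell division list one of 0.05, with 32 of 48 above 0. The fasting and fatty acid oxidation list had a median of -0.25 at 1 month (6 of 33 above 0), near the -0.29 at 6 months. Double-strand break repair genes had one of 0.11 (24 of 39 above 0), interferon response genes 0.14 (26 of 34) and cholesterol synthesis genes -0.15 (7 of 24). Summed acute phase levels at 1 month overlapped, with 39517, 38606 and 60193 CPM at day 2 and 40112, 72197 and 47765 CPM at day 6. The clock scores of these libraries were 4.44, 3.56 and -2.31, then 2.42, -2.76 and 1.48. On each day the library with the lowest score had the highest summed level. The part of the clock in the acute phase step at 1 month was not tested. Of the 44 genes higher after DEN at 6 months, 38 lay below 0 at 1 month with a median of -0.30, and the median difference between the ages was 0.19. DESeq2 called 4 genes in the difference between the ages, Lcn2, Nnmt, Orm2 and Saa1, each with a lower step at 6 months than at 1 month. Nnmt, the nicotinamide N-methyltransferase, had a step of only 0.04 at 6 months (95% interval -0.35 to 0.43).

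Clock genes varied within each day far more than between the days. Dbp, a clock output factor, was at 54.7, 77.6 and 6.24 CPM at day 2 and at 80.4, 39.7 and 14.3 CPM at day 6. Arntl, the partner of CLOCK, was at 1.22, 4.93 and 22.4 CPM and then at 1.15, 12.9 and 16.2 CPM. Their intervals were wide (-3.11 to 3.02 and -2.91 to 3.07), as were those of Npas2 and Per2, so the days could not be compared for them at this precision. The repressor Nr1d1 had a step of 0.16 (95% interval -0.64 to 0.95). With the clock score as a covariate, Apoa4 and its antisense partner were again the only calls (adjusted p of Apoa4 = 0.0623). Cyp2e1, which activates DEN, was at 6810, 5432 and 4112 CPM at day 2 and at 7479, 5209 and 2994 CPM at day 6, with the order of the replicate numbers alike on both days (step -0.06, 95% interval -0.68 to 0.55).

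Among the remaining lists no member passed, and medians lay between -0.34 for female-biased genes and 0.46 for the 2 tested exocrine pancreas markers. The former median was 0 without replicate 3 of day 6, and the latter ran from 0.27 to 0.79 when 1 library was left out. Heat shock protein genes were below 0 in 16 of 17 with a median of -0.08, and Hspb1 had the smallest p among them (log2 fold change -0.77, 95% interval -1.46 to -0.09). The heat shock median changed sign when single libraries were left out, from -0.30 to 0.08. Of the genes of the unfolded protein and ATF4 response, 15 of 24 were below 0 with a median of -0.13, which ran from -0.25 without replicate 3 of day 6 to 0.08 without replicate 3 of day 2. Sdf2l1, an endoplasmic reticulum chaperone subunit, was at 24.6, 40.3 and 81.8 CPM at day 2 and at 13.3, 25.1 and 43.5 CPM at day 6, lower at day 6 in all 3 replicate pairs while the days overlapped (adjusted p = 1 by edgeR, 0.0930 with the replicate block over 6 libraries). Gstm3, a glutathione transferase, was at 142, 153.5 and 154.8 CPM at day 2, 184, 224 and 300.9 CPM at day 6 and 87.4 and 78.6 CPM in the controls, with no overlap between groups (log2 fold change 0.65, 95% interval 0.10 to 1.20). Gstm3 may share reads with its close copies. Markers of neutrophils, B cells, stellate cells, sinusoidal endothelium, cholangiocytes, mesothelium and erythroid cells had medians between -0.08 and 0.05, and each of these changed sign when single libraries were left out. Of the adipocyte markers 5 were tested, with a median of -0.22 (-0.47 to -0.06 when 1 library was left out), 4 below 0, 2 of these with an unadjusted p under 0.05 and none without overlap. The differences within replicate pairs were -0.47, -0.13 and -1.03. Their summed level, nearly all of it from Car3, a carbonic anhydrase, was 1709 to 2614 CPM at day 2 and 2314 to 3306 CPM at day 6. The part of adipocyte markers in the lower lipid genes was not tested.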

How the data were processed

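Liver RNA was sequenced by the study from TruSeq libraries on a NextSeq. The submitters' processing notes and the methods name TopHat2 2.0.13 with GRCm38, and DESeq2 1.10.1, and the notes also list Cufflinks 2.2.1 and Cuffnorm. The sources used here do not say which program made the raw counts or if counting used strand. The authors deposited raw counts per gene, whole numbers that are not normalized, which were used here. Columns of their normalized counts (16) and of their own comparisons (fold changes and p-values) were not used. Of 47729 genes, 10 without given counts were left out. After TMM scaling, filterByExpr over the 6 groups kept 15684 genes. Differences were tested with edgeR 4.0.16 (quasi-likelihood, all 16 libraries in 1 model, R 4.3.3, limma 3.58.1) with Benjamini-Hochberg adjustment, and called at an adjusted p under 0.1. The biological coefficient of variation was 0.218 in common. Intervals are 95% intervals of the fitted log2 fold change (prior count 0.125), and CPM values use TMM-scaled library sizes. P-values measure the spread between pools of 3 mice and intervals of single genes are not adjusted for the number of genes.

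Same-numbered libraries of day 2 and day 6 deviated together from their group means, with correlations over genes of 0.25, 0.23 and 0.49, against -0.43 to 0.22 for other pairings, so the numbers were taken to pair the libraries. For replicate 2 of day 2 the same-numbered value (0.233) lay close to that with replicate 1 of day 6 (0.223). The labels do not say what a number marks.

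The libraries, gene lists and rule for named genes were chosen with earlier results of these data known. The rule takes the 12 genes of smallest p per direction without overlap between days and at least 1 CPM, per list the members that passed or the 1 with the smallest p, the 10 largest rises and falls after DEN, 8 genes of the age comparison and a fixed set. The fixed set holds p53 and clock genes and also Atp8b5, Nnmt, Mki67, Ccnd1, Cyp2e1 and Glul. It named 97 genes, which are not all described, and 1 of them is not reported here. Alternatives were other tools (DESeq2 1.42.0, limma-voom), scaling, filters, library subsets, the replicate block, a clock covariate and leaving out each library. The fit was tested on simulated data. Figures were made with matplotlib.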

Additional observations from a re-analysis of the deposited data

Results flagged for a closer look

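For the genes Lcn2 and Zfp174, all 3 day 6 libraries lay below those of day 2 at 6 months and above them at 1 month. For Lcn2 the step between the days was -1.12 at 6 months and 1.16 at 1 month, a difference of -2.28 on the log2 scale (adjusted p = 1.00 by edgeR's quasi-likelihood test). For Zfp174 the steps were -0.55 and 0.74, a difference of -1.29 (adjusted p = 1.00 by the same test). Over all 15684 genes tested, 16 had this order and 13 the opposite one. At 6 months alone, 529 genes (3.37%) had all day 6 libraries below those of day 2. Whether more genes had opposite orders at the 2 ages than would by chance was not tested.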

How the results depend on the processing

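The direction of Apoa4 held in every alternative, but its call was lost whenever 1 of the 6 libraries was left out. The count of genes that differed between the days was 2, and 0 in each leave-one-out fit. It was 10 (all lower) with no filter on low counts and 8 with the replicate block over the 6 libraries, and it stayed at 2 or 3 in the others, the block over 16 libraries included. Genes that differed between both DEN days and controls numbered 59, and 113 with DESeq2, 209 with limma-voom, 137 with no filter and 120 with the clock score over the 8 libraries of 6-month-old mice. Of the 59, 57 were also called by DESeq2, 59 by limma-voom and 57 in each of the last pair. Leaving out single libraries gave 13 (without 6-month control replicate 2) to 50 such genes. Over fits that left out 1 library, the median step was -0.310 to -0.0540 for the genes higher after DEN and 0.0574 to 0.358 for those lower. Each of these fits chose its genes anew, so the genes changed along with the libraries. Steps that differed between the ages numbered 0, but 4 with DESeq2 and 22 with no filter. An unadjusted p under 0.05 between the days was found for 269 genes by edgeR and 901 by limma-voom. The causes were not tested. Depth limits genes under about 1 CPM, such as Pbk, Park2 and Fhit.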

Other observations

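Protein-coding genes were also grouped by the length of genome they span, a grouping chosen after seeing the data. The 111 tested genes spanning over 500 kb had a median step of 0.12 between day 2 and day 6 at 6 months, with 77 (69.4%) above 0 and 14 (12.6%) with all day 6 libraries above those of day 2. For 533 genes of 200 to 500 kb the median was 0.04, with 37 (6.94%) without overlap above, and for 6565 genes of 10 to 50 kb it was 0.00, with 222 (3.38%). Over the longest genes, the median level by library relative to the controls was -0.29, -0.23 and -0.14 on the log2 scale at day 2 and -0.24, -0.17 and 0.00 at day 6, so the days overlapped. Leaving out 1 library moved the median step between 0.04 and 0.17. At 1 month the same genes had a median step of 0.09. Those with the smallest p were Park2 and Wwox.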
